A study of Mus musculus with 9 samples.

Results

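Transcript levels of the enzymes that write, copy and remove DNA methylation were compared between 4 types of female mouse germ cells. The genes were Dnmt1 and its recruiting factor Uhrf1, the de novo methyltransferases Dnmt3a and Dnmt3b with their cofactor Dnmt3l, the dioxygenases Tet1, Tet2 and Tet3, and the glycosylase Tdg. They were taken by symbol, and all 9 were found, each in a single row, among the 37980 gene rows of the deposited tables. RNA came from 9 libraries, 3 of primordial germ cells (PGCs) at E12.5, 2 of female germline stem cells (FGSCs), 2 of germinal vesicle (GV) oocytes and 2 of metaphase II (MII) oocytes. The labels give female C57BL/6 mice and passage 0 for all of them. By the study's methods, PGCs from XX genital ridges and FGSCs from the ovaries of 3- to 5-day-old mice were sorted as GFP-positive cells from mice in which Cre under the Mvh (Ddx4) promoter switches the ROSA mT/mG reporter. The fully grown oocytes in those methods came from hormone-primed C57BL/6 mice aged 6 weeks, were freed of cumulus cells with hyaluronidase, and were taken to be the labelled GV oocytes, while the collection of MII oocytes is not described in the sources used here. The files hold 1 FPKM value (fragments scaled to transcript length and to the mapped total) per gene and cell type, which the authors pooled over the libraries. No spread between libraries could therefore be computed and no test was made, so every difference is given as a description.

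DNA methylation in mammals is placed on CpG dinucleotides. Dnmt1 copies it to the new strand after replication and is brought to hemimethylated sites by Uhrf1. Dnmt3a and Dnmt3b set new marks, and Dnmt3l, which has no catalytic activity of its own, stimulates them. The Tet enzymes oxidise 5-methylcytosine to 5-hydroxymethylcytosine and further products, and Tdg excises the most oxidised of these so that base excision repair can restore an unmodified cytosine. In the mouse germline, methylation is erased in PGCs around the stage sampled here and is set again in growing oocytes, where Dnmt3a and Dnmt3l are known to be needed for maternal imprints, while Tet3 supplied by the oocyte acts on the zygote.

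A gene was called higher or lower where FPKM + 1 differed 2-fold or more between cell types, among genes with at least 1 FPKM in either of them. The 6 comparisons share their samples, since each cell type enters 3 of them. Values of a cell type were identical in every table that holds it. Summed over all genes, FPKM was 688500 in PGCs, 417955 in FGSCs, 560962 in GV oocytes and 1232437 in MII oocytes. Among genes of at least 1 FPKM in both cell types, the median log2 ratio of MII oocytes was 0.33 over PGCs, 0.51 over FGSCs and 0.52 over GV oocytes, against -0.25 for FGSCs over PGCs, -0.22 for GV oocytes over PGCs and -0.03 for GV oocytes over FGSCs. Log2 ratios are given as deposited, and with this median taken off (centred) or with FPKM rescaled to an equal sum (rescaled) where that matters. Counts of genes called in a list are read against all genes, of which 24.8% were higher and 21% lower in FGSCs than PGCs. For GV oocytes 34.3% were higher and 31.3% lower against PGCs, and 28.1% and 28% against FGSCs. For MII oocytes 44.8% were higher and 34.6% lower against PGCs, 41.3% and 35.3% against FGSCs, and 39.3% and 30.5% against GV oocytes. In the order FGSCs over PGCs, GV oocytes over PGCs and over FGSCs, then MII oocytes over PGCs, over FGSCs and over GV oocytes, the median log2 ratios of all genes were -0.09, 0.01, -0.05, 0.54, 0.30 and 0.37, and medians of lists are given in this order.

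Germ cell and oocyte markers were present as labelled, while markers of PGCs did not set PGCs apart from FGSCs. All 6 germ cell markers were at 1 FPKM or more in PGCs, FGSCs and GV oocytes and 4 of 6 in MII oocytes, with Ddx4, a germ cell RNA helicase, at 64.0, 59.0, 31.9 and 17.2 FPKM in that order. All 6 markers of PGCs were at 1 FPKM or more in FGSCs as well, where Nanos3, Dppa3 and Sall4 were lower and Prdm14 and Tfap2c higher. Their sum was 1560 FPKM in PGCs, 566 in FGSCs, 4282 in GV and 10622 in MII oocytes. Most of it was Dppa3, at 1288, 462, 4211 and 10134 FPKM. Against PGCs 1 of the 6 was higher and 4 lower in GV oocytes, and 2 higher and 2 lower in MII oocytes. The 9 oocyte markers summed to 10632 FPKM in GV and 29938 in MII oocytes, and to 16.5 in PGCs and 15.5 in FGSCs, where single markers stood between 0.0932% and 0.284% of their GV level. Markers of other cells also differed, with 6 erythroid genes at a sum of 16037 FPKM in PGCs, 6218 in FGSCs, 39.1 in GV and 1.38 in MII oocytes. The embryonic globins Hbb-y, Hbb-bh1 and Hba-x made up 89.4% of this sum in PGCs and 83.6% in FGSCs. By the study's methods the FGSCs came from postnatal ovaries, and the source of embryonic globin transcripts in them was not tested. The 9 granulosa cell genes summed to 126, 282, 68.3 and 21.03 FPKM and the 6 mesenchyme genes to 181, 101, 29.4 and 8.79. The granulosa cell genes did not all follow their sum. In GV oocytes 3 of the 9 were higher and 4 lower than in PGCs, and 3 higher and 6 lower than in FGSCs. Inha was among the higher ones, at 10.2, 19.4, 43.6 and 2.58 FPKM, and made up most of the GV sum. The 5 endothelial genes summed to 41.8, 44.01, 4.63 and 45.4 FPKM and the 5 leukocyte genes to 9.74, 12.3, 1.77 and 10.3. In MII oocytes most of these sums came from Pecam1 at 43.6 FPKM and Cd68 at 8.15. Against PGCs, MII oocytes had 1 endothelial gene higher (Pecam1) and 3 lower, and 1 leukocyte gene higher and 1 lower. In these bulk samples fewer cells of a type and less RNA per cell cannot be told apart, and the part of other cells in the values below was not tested.

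**Figure D1:**
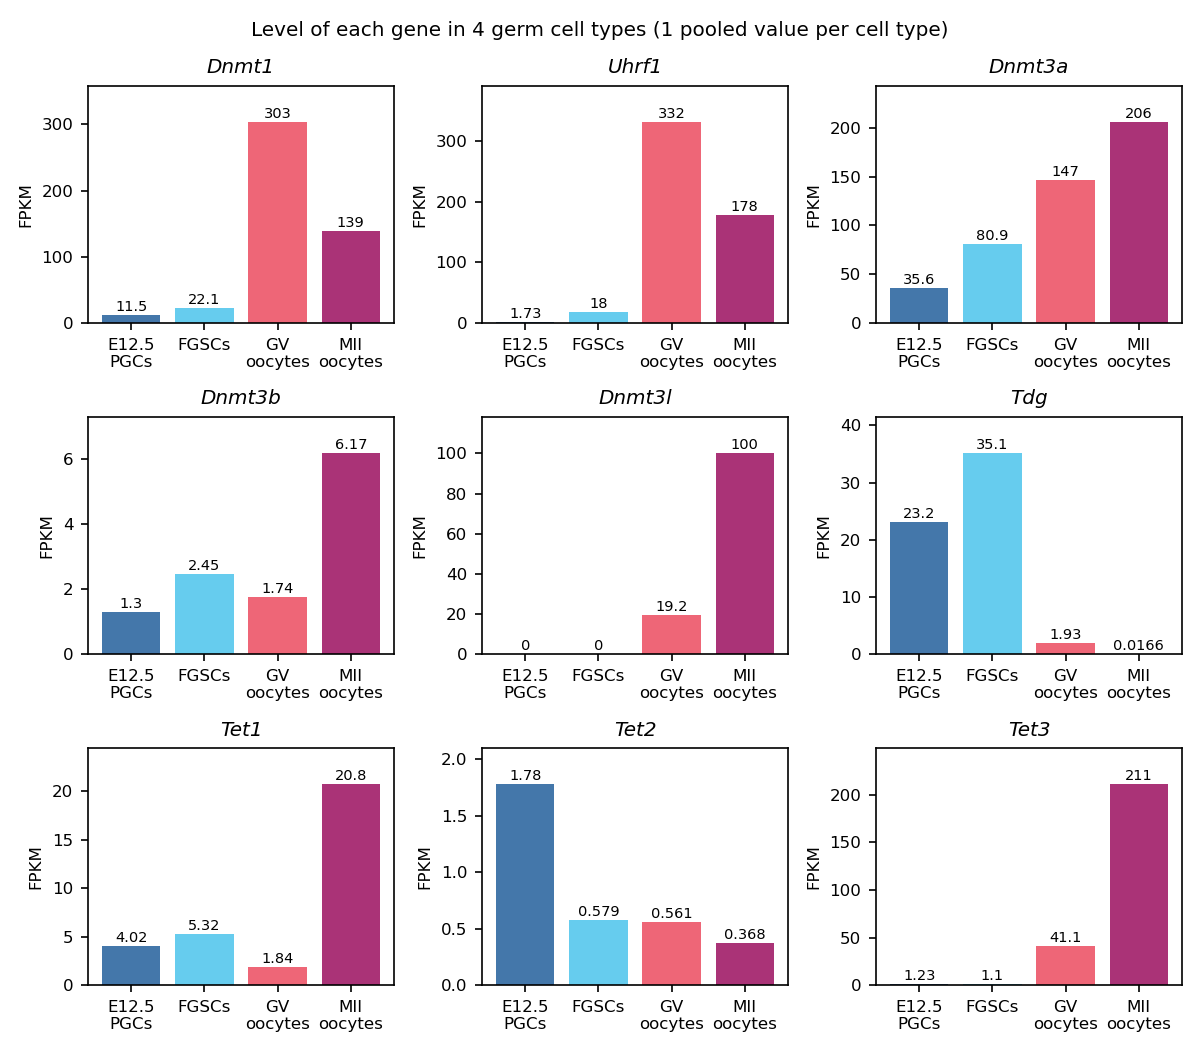
Level of each of the 9 genes (FPKM, linear axis from 0, a separate scale for each gene) in PGCs and FGSCs and in oocytes at the GV and MII stage. Each bar is the authors' pooled value, so no error bars can be drawn. Dnmt1 and Uhrf1 were highest in GV oocytes at 303 and 332 FPKM, Dnmt3a, Dnmt3b, Dnmt3l, Tet1 and Tet3 in MII oocytes, Tdg in FGSCs and Tet2 in PGCs.

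The maintenance pair was low in PGCs and highest in GV oocytes. Dnmt1 (ENSMUSG00000004099, mm9 chr9:20711649-20757317) was at 11.5 FPKM in PGCs, 22.1 in FGSCs, 303 in GV oocytes and 139 in MII oocytes. Both oocyte stages were far above the earlier cells, and GV oocytes were above MII oocytes. Among genes above 0, Dnmt1 stood at percentile 69.6 in PGCs and at percentile 98.2 in GV oocytes. The level in GV oocytes was 26.5-fold that in PGCs and 13.8-fold that in FGSCs, and that in MII oocytes was 2.18-fold below it.

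Uhrf1 (ENSMUSG00000001228, mm9 chr17:56442743-56462909), which reads hemimethylated CpG and ubiquitinates histone H3 to recruit Dnmt1, was at 1.73 FPKM in PGCs, 18.0 in FGSCs, 332 in GV oocytes and 178 in MII oocytes. The order of the cell types is that of Dnmt1, but the span was wider. PGCs stood 10.4-fold below FGSCs and 192-fold below GV oocytes. In that comparison 0.551% of the genes had a larger log2 ratio than Uhrf1, at 6.93. The PGC value was 0.520% of the GV value, against 0.0932% to 0.236% for the 9 oocyte markers in PGCs. How much of the PGC value was oocyte RNA was not tested. Per length, Uhrf1 transcript was 0.150 times that of Dnmt1 in PGCs, 0.815 times in FGSCs, 1.09 times in GV oocytes and 1.28 times in MII oocytes, so that the shortfall of Uhrf1 beside its partner was seen in PGCs.

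Uhrf2, a paralogue that also binds methylated DNA, ran the other way, at 35.7 FPKM in PGCs, 16.5 in FGSCs, 1.15 in GV oocytes and 1.07 in MII oocytes. Its level was 20.7 times that of Uhrf1 in PGCs and 0.919 times in FGSCs. In GV oocytes Uhrf1 was instead at 289 times the level of Uhrf2, and in MII oocytes at 167 times. Uhrf2 was chosen for description after its values were seen.

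Promoter windows of this pair are shown because both genes are known targets of the S phase programme in dividing cells, while their transcripts were most abundant in the non-dividing GV oocyte. The windows are the 250 bases before RefSeq starts on GRCm38.p6, 5′ to 3′ on the strand of the gene. Dnmt1 has 3 such starts, the later ones lying 6909 and 7265 bases downstream of the first, with 2, 7 and 26 CpG in their windows, where the median over 32841 windows of all genes is 6 and the quartiles are 2 and 16. In mouse a separate Dnmt1 start is known to serve oocytes, and FPKM summed over a gene does not tell which start was used. An E2F-type motif (TTTGGCGC, TTTGCCGC, TTTCGCGC or TTTCCCGC on either strand) was in 1.86% of all windows and in 2 of the 16 windows of the 9 genes, those of the last Dnmt1 start and the second Uhrf1 start. Both of these windows lie wholly downstream of an earlier start of their gene, and so within sequence that can be transcribed from that start. In the first line below the CpG are in capitals, and in the other lines the E2F-type match, which is TTTCGCGC in Uhrf1 and its reverse complement in Dnmt1.
Dnmt1, first start, chr9:20959889-20960138, minus strand: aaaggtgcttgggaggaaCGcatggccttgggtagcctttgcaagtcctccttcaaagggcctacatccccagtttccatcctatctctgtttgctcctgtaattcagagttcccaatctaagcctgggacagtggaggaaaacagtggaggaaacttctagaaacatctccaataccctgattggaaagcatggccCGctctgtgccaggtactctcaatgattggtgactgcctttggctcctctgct
Dnmt1, last start, chr9:20952624-20952873, minus strand: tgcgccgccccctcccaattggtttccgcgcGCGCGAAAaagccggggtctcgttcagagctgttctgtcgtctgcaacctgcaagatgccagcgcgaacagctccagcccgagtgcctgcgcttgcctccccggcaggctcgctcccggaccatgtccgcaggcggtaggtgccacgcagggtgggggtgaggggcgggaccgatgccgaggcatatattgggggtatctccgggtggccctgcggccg
Uhrf1, second start, chr17:56304063-56304312, plus strand: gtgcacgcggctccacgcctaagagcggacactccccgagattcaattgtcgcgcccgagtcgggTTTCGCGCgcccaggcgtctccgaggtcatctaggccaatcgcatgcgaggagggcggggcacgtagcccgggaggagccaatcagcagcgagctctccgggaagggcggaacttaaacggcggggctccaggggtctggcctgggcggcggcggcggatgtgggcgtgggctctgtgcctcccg
The window of the first Dnmt1 start holds 2 CpG, and that of the second Uhrf1 start holds 30. A match is a description of letters only. Of 10 genes of the S phase list with a window, 3 (Mcm5, Mcm6 and Mcm7) held such a match, against 2.16% of all genes.

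Levels of S phase genes went apart from those of Dnmt1 and Uhrf1 in GV oocytes. Of 12 S phase and cycling genes, 0 were higher and 9 lower in GV oocytes than in FGSCs, and 0 higher and 10 lower than in PGCs, with medians of -2.38 and -2.32 on the log2 scale beside -0.05 and 0.01 over all genes. Top2a, a topoisomerase of dividing cells, was at 218 FPKM in PGCs, 49.7 in FGSCs, 6.49 in GV and 10.7 in MII oocytes. Mcm6, a subunit of the replicative helicase, was at 171, 152, 26.3 and 24.1 FPKM, Rrm2 of ribonucleotide reductase at 109, 102, 8.66 and 207, and cyclin A2 (Ccna2) at 39.3, 60.5, 32.3 and 438. In MII against GV oocytes 7 of the 12 were higher and 1 lower, while Dnmt1 was lower and Uhrf1 had a log2 ratio of -0.89. In FGSCs against PGCs 1 was higher and 2 lower, where Uhrf1 was higher.

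Other maintenance partners did not share one pattern. Usp7, a deubiquitinase that stabilises Dnmt1 and Uhrf1, was at 9.68 FPKM in PGCs, 10.2 in FGSCs, 30.6 in GV oocytes and 119 in MII oocytes. Pcna, the sliding clamp, was at 329, 126, 76.9 and 526 FPKM, and Hells, a chromatin remodeller needed for methylation of repeats, at 97.6, 66.2, 20.4 and 139, so both were lowest in GV oocytes. Dppa3 (Stella), which in mouse oocytes keeps Uhrf1 out of the nucleus, was at 1288, 462, 4211 and 10134 FPKM. Of the 9 genes on this list, FGSCs had 0 higher and 3 lower against PGCs. In GV oocytes 2 were higher and 4 lower than in PGCs, and likewise 2 and 4 than in FGSCs. In MII oocytes 2 were higher and 4 lower than in PGCs, 4 higher and 5 lower than in FGSCs, and 4 higher and 1 lower than in GV oocytes. The median log2 ratios of the list were -0.55, -0.73, -0.70, -0.73, -1.42 and 0.58.

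Among the de novo enzymes Dnmt3a was the abundant one in every cell type. Dnmt3a (ENSMUSG00000020661, mm9 chr12:3806006-3914443) was at 35.6 FPKM in PGCs, 80.9 in FGSCs, 147 in GV oocytes and 206 in MII oocytes. Its values were lowest in PGCs, then rose over FGSCs and GV oocytes to MII oocytes, with a 5.79-fold span. FGSCs were higher than PGCs with a log2 ratio of 1.16, but the log2 ratio of MII over GV oocytes, 0.48 as deposited, turned to -0.04 when centred and to -0.65 when rescaled. That of MII oocytes over FGSCs went from 1.34 to 0.83 when centred and -0.21 when rescaled.

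Dnmt3b (ENSMUSG00000027478, mm9 chr2:153474425-153513466), the main de novo enzyme of the early embryo proper, was at 1.30 FPKM in PGCs, 2.45 in FGSCs, 1.74 in GV oocytes and 6.17 in MII oocytes. Among genes above 0 it reached at most percentile 59.4, in MII oocytes. Dnmt3a was at 27.4 times its level in PGCs, 33.0 times in FGSCs, 84.6 times in GV oocytes and 33.4 times in MII oocytes. The log2 ratio of MII oocytes over FGSCs was 1.05 as deposited, 0.54 centred and -0.19 rescaled.

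Dnmt3l (ENSMUSG00000000730, mm9 chr10:77492766-77526367) was listed at 0 in PGCs and in FGSCs, and was at 19.2 FPKM in GV oocytes and 100.1 in MII oocytes. It was thus seen at the oocyte stages alone, and the oocyte values differed 5.21-fold. An exact 0 in these tables can be a failed estimate, since H1foo and Spin1 are set to 0 where the authors' program marked them as too deep to quantify, but no row of the 9 genes carried such a mark. Aire lies within the same span of the tables and was at 0.0217, 0.603, 3.10 and 6.02 FPKM, and it is not given whether reads were counted by strand. Relative to Dnmt3a, the partner it stimulates, Dnmt3l was at 0.131 times its level in GV oocytes and 0.486 times in MII oocytes. The window before its first RefSeq start is shown as that of the one gene of the 9 that was listed at 0 in both earlier cell types, with the 5 CpG in capitals.
Dnmt3l, first start, chr10:78042037-78042286, plus strand: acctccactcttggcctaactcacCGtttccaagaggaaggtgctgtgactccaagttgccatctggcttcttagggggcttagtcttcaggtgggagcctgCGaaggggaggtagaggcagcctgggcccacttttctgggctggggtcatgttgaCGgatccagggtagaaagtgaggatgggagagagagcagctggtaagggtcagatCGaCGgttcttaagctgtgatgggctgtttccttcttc
The 3 Dnmt3l windows hold 5, 4 and 3 CpG and are thus below the median of all genes, as is that of the first Dnmt1 start. The other windows of the 9 genes hold from 7 to 51 CpG, the most in Tet2, with 15 in Tet1, 17 in Tet3, 19 in Tdg and 21 in Dnmt3b. The motif TAATTG, known as a site for the oocyte homeobox factor Nobox in mouse, was in 0 of the 16 windows and in 7.17% of all windows.

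The mix of catalytic methyltransferases differed between cell types. Of the summed FPKM of Dnmt1, Dnmt3a and Dnmt3b, Dnmt1 made up 23.7% in PGCs, 20.9% in FGSCs, 67.1% in GV oocytes and 39.6% in MII oocytes. Dnmt3a made up 73.6%, 76.7%, 32.5% and 58.6%. Dnmt1 was therefore the larger share in GV oocytes and Dnmt3a in the other cell types. The sum of the 3 was 48.3 FPKM in PGCs, 105 in FGSCs, 452 in GV oocytes and 351 in MII oocytes. These shares are ratios within a cell type, which rescaling leaves as they are.

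**Figure D2:**
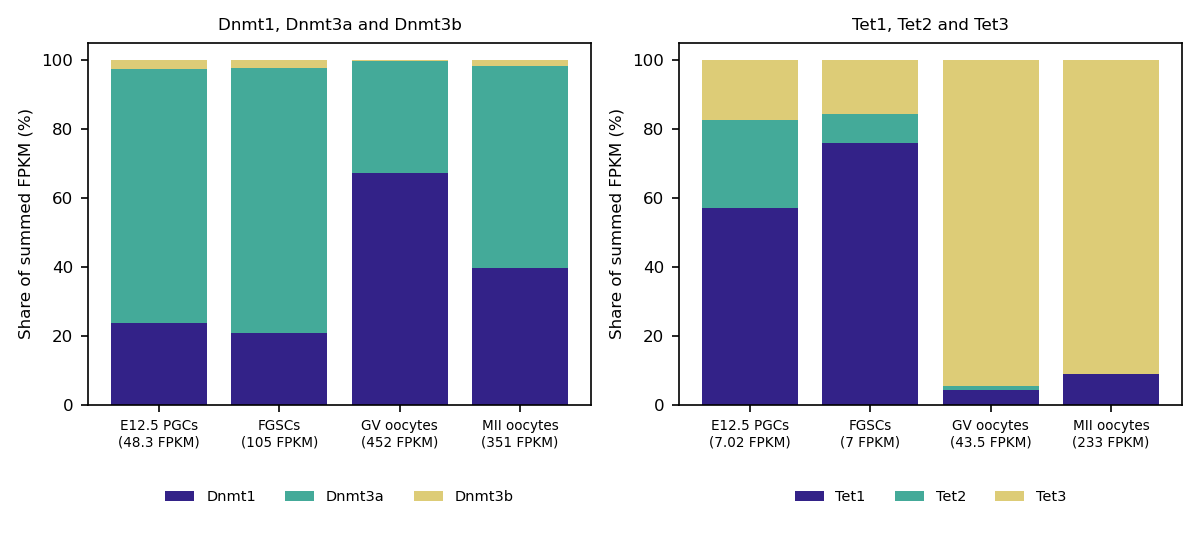
Share (%) of each gene in the summed FPKM of Dnmt1, Dnmt3a and Dnmt3b (left) and of Tet1, Tet2 and Tet3 (right) in the 4 cell types, with the summed FPKM in brackets under each bar. Dnmt1 had 67.1% of the left sum in GV oocytes, and Tet3 had 94.5% of the right sum in GV and 90.9% in MII oocytes.

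The 3 Tet genes differed from each other. Tet1 (ENSMUSG00000047146, mm9 chr10:62267317-62361866) was at 4.02 FPKM in PGCs, 5.32 in FGSCs, 1.84 in GV oocytes and 20.8 in MII oocytes. It was lowest in GV oocytes and highest in MII oocytes, an 11.3-fold difference, with a log2 ratio of 2.94 as deposited, 2.42 centred and 2.06 rescaled. Tet1 is known to be needed in mouse PGCs for demethylation of meiotic genes.

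Tet2 (ENSMUSG00000040943, mm9 chr3:133126642-133207354), the one of the 3 without a CXXC domain, was at 1.78 FPKM in PGCs, 0.579 in FGSCs, 0.561 in GV oocytes and 0.368 in MII oocytes. PGCs alone reached 1 FPKM. At such levels the pseudocount shrinks ratios, and FGSCs over PGCs gave a log2 ratio of -0.82.

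Tet3 (ENSMUSG00000034832, mm9 chr6:83312366-83391672) was at 1.23 FPKM in PGCs, 1.10 in FGSCs, 41.1 in GV oocytes and 211 in MII oocytes. The earlier cell types had similar values, with a log2 ratio of FGSCs over PGCs of -0.08 that turned to 0.16 when centred and 0.39 when rescaled. GV oocytes were 33.5-fold above PGCs, and MII oocytes a further 5.14-fold above GV oocytes. The values in PGCs and FGSCs were 2.99% and 2.69% of that in GV oocytes, and so above the range of the oocyte markers given earlier. The part of oocyte RNA in them was not tested.

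The make-up of the Tet sum differed between the earlier cells and the oocytes. Tet1 made up 57.2% of it in PGCs and 76.0% in FGSCs, and 4.22% in GV and 8.92% in MII oocytes. Tet3 made up 17.5%, 15.8%, 94.5% and 90.9%, and Tet2 25.3%, 8.27%, 1.29% and 0.158%. The sum was 7.02 FPKM in PGCs, 7.003 in FGSCs, 43.5 in GV oocytes and 233 in MII oocytes.

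Transcript of the glycosylase was abundant in the earlier cells and scarce in oocytes. Tdg (ENSMUSG00000034674, mm9 chr10:82092572-82153395), which removes 5-formylcytosine and 5-carboxylcytosine, was at 23.2 FPKM in PGCs, 35.1 in FGSCs, 1.93 in GV oocytes and 0.0166 in MII oocytes. Both oocyte values were below both earlier ones, and MII oocytes were near 0. GV oocytes were 11.98-fold below PGCs and 18.2-fold below FGSCs. In the comparison with FGSCs 1.17% of the genes had a smaller log2 ratio than Tdg, at -3.62. Glt8d2, which shares its span in the tables, was at 0.0224, 2.33, 0 and 0 FPKM. In MII oocytes Tdg was thus the least abundant of the 9 transcripts, while Tet3, which makes its substrates, was at 211 FPKM and Dnmt3a at 206, the highest of the 9.

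Other genes of demethylation and base excision repair were mixed in the oocytes. Ung, a uracil glycosylase, was at 51.4 FPKM in PGCs, 155 in FGSCs, 132 in GV oocytes and 44.03 in MII oocytes. Apex1, the abasic site endonuclease, was at 231, 167, 19.2 and 17.7 FPKM, and Parp1, a sensor of strand breaks, at 43.8, 133, 24.8 and 2.02. Both, like Tdg, had oocyte values below both earlier ones, but Parp1 in GV oocytes was under 2-fold below PGCs. Lig1, a DNA ligase, was at 92.8, 52.2, 86.7 and 54.8 FPKM. Of the 15 genes on the list, 1 was higher and 4 lower in GV oocytes than in FGSCs and 5 higher and 3 lower than in PGCs. FGSCs had 5 higher and 1 lower than PGCs. MII oocytes had 2 higher and 4 lower than PGCs, 2 higher and 6 lower than FGSCs, and 3 higher and 5 lower than GV oocytes. The median log2 ratios were 0.29, 0.10, -0.23, 0.07, -0.28 and -0.62.

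**Figure D3:**
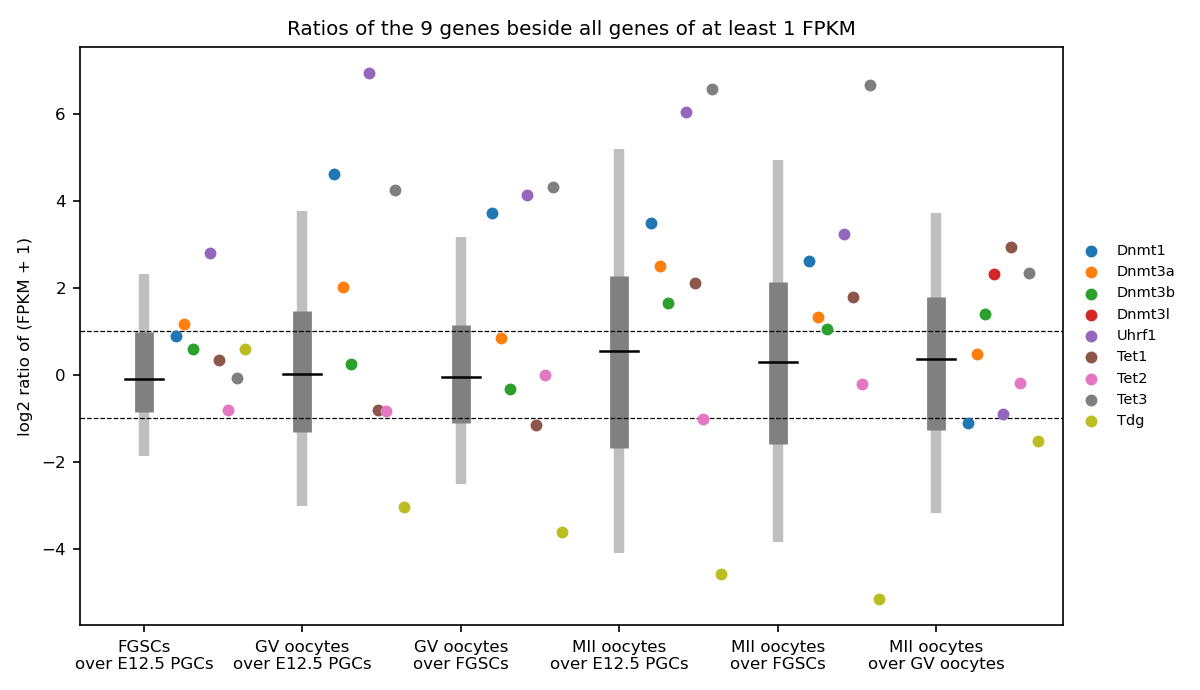
Log2 ratio of FPKM + 1 for each gene (coloured points) in the 6 comparisons between cell types, beside all genes of at least 1 FPKM in either cell type (dark bar, middle 50% of genes; light bar, middle 90%; black tick, median). Dashed lines mark 2-fold, and Dnmt3l is left out where the cell type compared with is listed at 0. Uhrf1 over PGCs stood at 6.93 in GV oocytes, and Tdg over FGSCs at -5.15 in MII oocytes.

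Counted over the comparisons, the 9 genes had their smallest number of calls between the earlier cell types, where the share of all genes called was smallest as well. In FGSCs against PGCs 2 of the 9 were higher, Dnmt3a and Uhrf1, and 0 lower, where 24.8% of 13169 genes were higher and 21% lower. The log2 ratio of Uhrf1 was 2.80 and that of Dnmt1 0.89, and the median over the 8 genes above 0 in both was 0.58, beside -0.09 over all genes. One of the 9, Dnmt3l, was below 1 FPKM in both. The share of the 9 that was higher is near the background as deposited, and with FPKM rescaled 6 of the 9 (Dnmt1, Dnmt3a, Dnmt3b, Uhrf1, Tet1 and Tdg) were higher, where 41.8% of all genes were.

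In GV oocytes against PGCs 5 of the 9 were higher, Dnmt1, Dnmt3a, Dnmt3l, Uhrf1 and Tet3, and 1 lower, Tdg, where 34.3% of 13964 genes were higher and 31.3% lower. Against FGSCs 4 were higher, Dnmt1, Dnmt3l, Uhrf1 and Tet3, and 2 lower, Tet1 and Tdg, where 28.1% of 14253 genes were higher and 28% lower. Both counts of higher genes were larger shares of the 9 than the background, while the count for Dnmt3l rests on a value listed at 0. Dnmt3l entered through its oocyte value alone, and 8 of the 9 passed the filter against FGSCs. The 9 genes were chosen with earlier results of these data known, so these shares are descriptions and no test of an excess. The medians over the 8 genes above 0 in both were 1.13 and 0.42, beside 0.01 and -0.05 over all genes. The log2 ratios over FGSCs were 3.72 for Dnmt1, 4.13 for Uhrf1, 4.32 for Tet3, -1.16 for Tet1 and -3.62 for Tdg.

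MII oocytes against PGCs and against FGSCs had the most calls, as they had the largest shares of all genes called. Against PGCs 7 of the 9 were higher and 2 lower, Tet2 and Tdg, where 44.8% of 14403 genes were higher and 34.6% lower. Against FGSCs the same 7 were higher and 1 lower, Tdg, where 41.3% of 14964 genes were higher and 35.3% lower, and with FPKM rescaled to an equal sum 4 of the 9 were higher, where 25.1% of all genes were higher and 53.6% lower. The log2 ratios over PGCs ran from 1.64 for Dnmt3b to 6.57 for Tet3 among the genes above 0 in both, and were -1.02 for Tet2 and -4.57 for Tdg. The medians over the 8 genes above 0 in both were 2.31 and 1.56, beside 0.54 and 0.30 over all genes.

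From GV to MII oocytes the enzymes parted. Reverse transcription used oligo(dT), so a change in transcript number and one in polyadenylation cannot be told apart in these ratios. Dnmt3b, Dnmt3l, Tet1 and Tet3 were higher, 4 of the 9, and Dnmt1 and Tdg lower, where 39.3% of 13878 genes were higher and 30.5% lower. The log2 ratio of Dnmt1 was -1.12 as deposited, -1.64 centred and -2.25 rescaled, and that of Uhrf1 was -0.89, -1.41 and -2.03 in the same order, so that Uhrf1 passed 2-fold when the general shift was taken off. Dnmt3l was at 2.32, 1.80 and 1.22, and Tet3 at 2.33, 1.81 and 1.22. Dnmt3b was at 1.39, 0.87 and 0.55 and so passed 2-fold as deposited alone. The median over the 9 genes was 0.48, beside 0.37 over all genes, and the share of the 9 that was higher is close to the background. Rescaled, 3 of the 9 were higher and 3 lower, where 23.8% of all genes were higher and 45.6% lower.

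Profiles over the 4 cell types were compared as log2(FPKM + 1) centred on each gene's own mean, which is a description over 4 points that share libraries. Of the 36 pairs among the 9 genes, Dnmt3l and Tet3 were the closest, at a distance of 0.08, but this rests on the pseudocount of 1, since Dnmt3l is listed at 0 in PGCs and FGSCs and Tet3 is near 1 FPKM there. With a pseudocount of 0.1 their distance was 2.58 and the closest pair was Dnmt3a and Dnmt3b at 1.26. Dnmt3b and Tet1 followed at 1.29, Dnmt1 and Dnmt3a at 2.30 and Dnmt1 and Uhrf1 at 2.41. With a pseudocount of 1 Dnmt1 and Uhrf1 were at 2.01, rank 5 of the 36, and Dnmt3b and Tet1 at 1.12, rank 2. Among 9326 other genes of at least 10 FPKM in 1 cell type, the nearest to both Dnmt3l and Tet3 were Sebox, a homeobox gene of oocytes, at 0.08 and 0.09, and Paqr6 at 0.09 and 0.10. Sebox was listed at 0 in PGCs and FGSCs and was at 18.1 FPKM in GV oocytes and 102 in MII oocytes. With a pseudocount of 0.1 Sebox was again nearest to Dnmt3l, at 0.09, while the nearest to Tet3 was D5Ertd577e at 0.15. With a pseudocount of 1, 16 genes were within a distance of 0.5 for Dnmt3l and 18 for Tet3.

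With a pseudocount of 1 the other genes differed in how many neighbours they had. Uhrf1 had the fewest, with 1 gene within 0.5, Socs1 at 0.50, followed by Cdk20 at 0.59. For Tdg 8 genes were within 0.5, led by Eno1 of glycolysis at 0.28 and AL844840.1 at 0.29, and for Dnmt1 14, led by 2010001K21Rik at 0.28 and Ablim1 at 0.30. Dnmt3a had 38, led by Gpr56 at 0.23 and Baz2a at 0.24, and Tet1 had 60, led by Pggt1b at 0.11 and Ccdc132 at 0.12. Dnmt3b had 82, led by Peli1 and Igf2bp3, both at 0.15, and Tet2 had 97, led by Slc35b2 at 0.09 and Mrps15 at 0.10. These neighbours rest on the pseudocount, and at 0.1 the nearest gene was another one in each case. It was then Ctnna2 for Uhrf1, at 0.23, Cdk4 for Tdg, AW555464 for Dnmt1 and Bcl9 for Dnmt3a. For Tet1 it was Ncapd3, for Dnmt3b Lrp1 and for Tet2 Trmt5.

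Chromatin regulators that steer de novo methylation included a gene that, like Dnmt1, was highest in GV oocytes. Kdm1b, the histone H3K4 demethylase needed for maternal imprints in mouse oocytes, was at 2.92 FPKM in PGCs, 4.31 in FGSCs, 84.4 in GV oocytes and 41.1 in MII oocytes. Setd2, which places H3K36me3, was at 11.2, 7.86, 8.06 and 48.7 FPKM, and Ezh2 of the Polycomb complex at 57.0, 17.7, 45.9 and 278. Trim28, a corepressor that guards imprints, was at 146, 102, 94.6 and 251 FPKM. Of the 8 genes on the list 2 were higher and 0 lower in GV oocytes than in FGSCs, and 3 and 0 than in PGCs. MII oocytes had 6 higher than PGCs and 5 higher than FGSCs with 0 lower in both, and 4 higher and 1 lower, Kdm1b, than GV oocytes. In FGSCs 2 were higher and 1 lower than in PGCs. The median log2 ratios were -0.25, -0.03, 0.02, 1.72, 1.39 and 1.13.

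Of 7 readers of methylated CpG, Mbd2, a subunit of a repressor complex, was at 2.05 FPKM in PGCs, 2.93 in FGSCs, 31.8 in GV oocytes and 15.0 in MII oocytes. Mbd3, its counterpart that hardly binds methylated DNA, was at 67.5, 94.5, 55.2 and 4.65 FPKM, so that MII oocytes held more Mbd2 than Mbd3. Zbtb38 was at 39.8, 5.66, 1.33 and 0.540 FPKM, and Mbd1 at 1.399, 8.37, 3.97 and 1.59. On the whole list FGSCs had 2 higher and 1 lower against PGCs. GV oocytes had 3 higher and 1 lower against PGCs, and 1 and 1 against FGSCs. MII oocytes had 2 and 2 against PGCs, 2 and 4 against FGSCs, and 1 and 3 against GV oocytes. The median log2 ratios were 0.48, 1.05, -0.76, -0.15, -1.93 and -0.99.

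**Figure D4:**
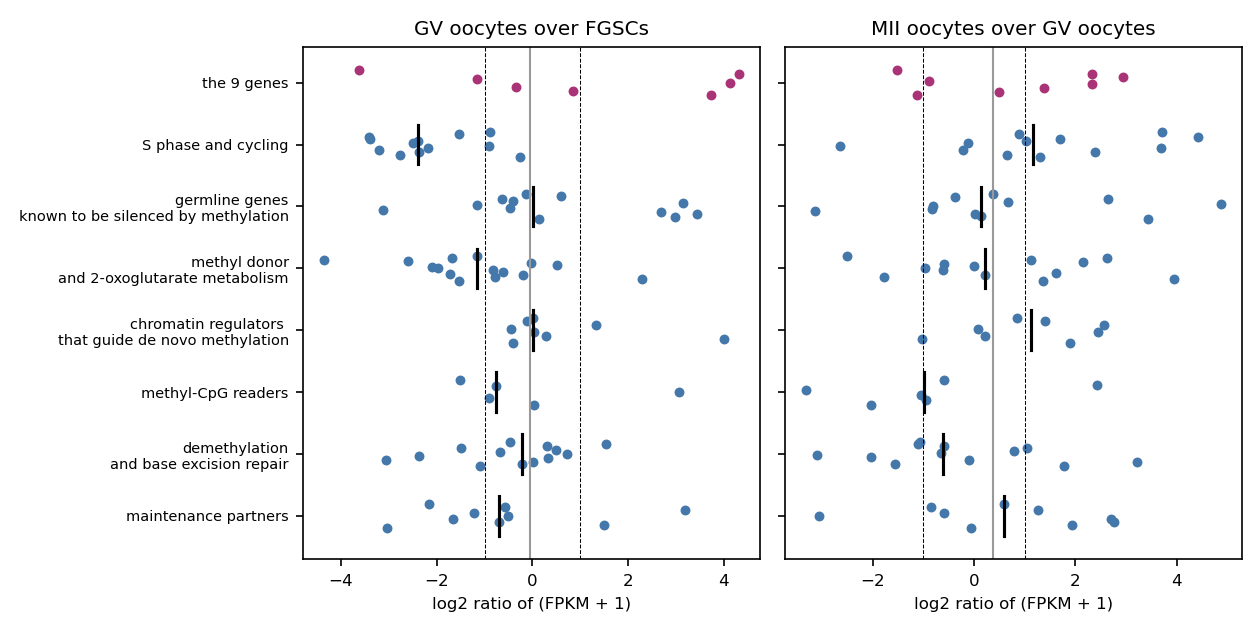
Log2 ratio of FPKM + 1 for each gene of the 9 (top) and of 7 lists, in GV oocytes over FGSCs and in MII over GV oocytes, with 1 point per gene of at least 1 FPKM in either and above 0 in both. Black ticks are medians of the 7 lists, the grey line is the median of all genes and dashed lines mark 2-fold. In GV oocytes over FGSCs the S phase list sat at a median of -2.38, while Dnmt1, Uhrf1 and Tet3 were above 3.

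Transcripts of 15 genes of methyl donor and 2-oxoglutarate metabolism were also read, 2-oxoglutarate being a cosubstrate of the Tet enzymes. Idh1 and Idh2, the isocitrate dehydrogenases that make 2-oxoglutarate, were at 125 and 163 FPKM in PGCs, 54.0 and 161 in FGSCs, 8.15 and 6.92 in GV oocytes, and 55.7 and 0.387 in MII oocytes. Idh2 was thus far lower in both oocyte stages, while Idh1 in MII oocytes was near its level in FGSCs. Mat2b, the regulatory subunit of the enzyme that makes S-adenosylmethionine, was at 42.7, 45.7, 227 and 3540 FPKM, and Shmt2, of mitochondrial one-carbon metabolism, at 11.4, 19.7, 28.7 and 131. On the list FGSCs had 5 genes higher and 1 lower against PGCs. GV oocytes had 4 and 4 against PGCs and 1 and 8 against FGSCs. MII oocytes had 3 and 4 against PGCs, 3 and 8 against FGSCs, and 6 and 3 against GV oocytes. The median log2 ratios, over genes above 0 in both cell types, were 0.72, -0.24, -1.16, -0.51, -0.70 and 0.21.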

How the data were processed

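RNA was reverse transcribed with oligo(dT) per the labels, so polyadenylated RNA was measured. The FPKM values were deposited by the authors in 6 tables, 1 for each pair of cell types, and were pooled over libraries. The submitters' processing notes name TopHat2, Cufflinks 2.2.1 and mm9, and the paper's Methods name Trimmomatic, TopHat2, Cufflinks, RefSeq and mm10. The tables carry Ensembl identifiers and mm9 coordinates. Their fold changes, test statistics, p-values and q-values are the authors' own comparisons and were not used. The tables hold no counts, and the depth of the libraries was not analysed here.

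PGC and FGSC values were taken from the table of that pair, and GV and MII oocyte values from theirs. Of a symbol with several rows, the row with the highest FPKM was kept. Ratios were taken on log2(FPKM + 1), which understates differences of low genes, with Python 3.11.15, numpy 2.4.6 and pandas 2.3.3, and the calculation was tested on simulated data. All 9 genes are named, with the 4 genes of highest FPKM in each list and the 2 nearest profiles of each gene, and Uhrf2, Ddx4, H1foo, Spin1, Aire, Glt8d2, Mcm5, Mcm7 and near copies were named after their values were seen. The 9 genes and the lists were chosen with earlier results of these data known. Alternatives covered the pseudocount, the filter, the fold, the scaling, repeated symbols and the table used. A background of protein-coding genes of GENCODE M21 and a pseudocount of 0.1 for the profile distances were added after seeing the data.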

Additional observations from a re-analysis of the deposited data

How the results depend on the processing

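No paired analysis was possible because the tables hold 1 pooled value per cell type, and for the same reason leaving out single libraries was not run. Of 486 log2 ratios of the 9 genes recomputed under alternatives, 459 kept their call (higher, lower or neither), 4 of these with the other sign. Many of the 459 could not have changed, so this number is no measure of robustness. Each of the 9 genes has a single row, and values are identical between tables. A filter or a choice of background leaves a gene's own ratio as it is. The 27 changes all came from the pseudocount, the fold and the scaling. Of 120 counts of the 9 genes 12 moved by over 1.5 times or to or from 0, and of 120 shares over all genes 20 moved by over 1.5 times. With FPKM rescaled to an equal sum, the log2 ratios of MII oocytes over FGSCs were -0.21 for Dnmt3a and -0.19 for Dnmt3b and so reversed, 4 genes in place of 7 were higher in MII oocytes than in FGSCs, where the share over all genes went from 41.3% to 25.1%, and 6 in place of 2 were higher in FGSCs against PGCs, where it went from 24.8% to 41.8%. With a pseudocount of 0.1 or with none, 1 gene in place of 0 (Tet2) was lower in FGSCs than in PGCs and 3 in place of 1 (Tet1 and Tet2 beside Tdg) were lower in GV oocytes than in PGCs. At 1.5-fold these counts were again 1 and 3, and 4 genes were higher in FGSCs than in PGCs. With at least 1 FPKM asked for in both cell types, 0 genes were lower in MII oocytes than in PGCs or FGSCs and 1 (Dnmt1) than in GV oocytes, since Tet2 and Tdg then drop out. Without a filter, with the rows of a symbol summed and with the table of each pair read directly, the counts of the 9 genes were as reported, but without a filter the shares over all genes, most then being under 1 FPKM in both cell types, were 8.59% to 17% higher and 7.27% to 13.9% lower. Among protein-coding genes, an alternative added after seeing the data, the background was 24.99% to 43.8% higher and 19.5% to 36.4% lower over the 6 comparisons.

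The values of Tet2 and Dnmt3b and the oocyte values of Tdg lie at low FPKM, where depth, not analysed here, would limit them most. So do Uhrf1 in PGCs at 1.73 FPKM, Tet3 in PGCs and FGSCs at 1.23 and 1.10, and Tet1 in GV oocytes at 1.84. The largest folds of Uhrf1, Tet3 and Tet1 rest on these values. The spread between libraries is not known for any value.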

Other observations

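Near relatives of the enzymes were read as a check on shared reads. Trdmt1, a tRNA methyltransferase related in sequence to the DNA methyltransferases, was at 2.25 FPKM in PGCs, 3.78 in FGSCs, 4.79 in GV oocytes and 37.4 in MII oocytes. The pseudogene Dnmt3l-ps1 was listed at 0 in PGCs, FGSCs and MII oocytes and was at 0.356 FPKM in GV oocytes. The transcript 7530422B04Rik, which shares its span with Dnmt3b, was listed at 0 in PGCs and FGSCs and was at 4.91 FPKM in GV and 0.664 in MII oocytes.

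Of 12 germline genes known in mouse to be silenced by promoter methylation in somatic cells, Dazl, an RNA-binding protein of germ cells, was at 34.2 FPKM in PGCs, 75.003 in FGSCs, 82.6 in GV oocytes and 900.4 in MII oocytes. Brdt, a bromodomain protein, was at 3.71, 2.63, 31.2 and 947 FPKM. Sycp3, of the synaptonemal complex, was at 21.6, 9.30, 79.9 and 88.0 FPKM, and Asz1, of the piRNA pathway, at 28.1, 29.7, 18.7 and 123. In FGSCs 1 of the 12 was higher and 5 lower than in PGCs. GV oocytes had 5 higher and 4 lower against PGCs and 4 and 2 against FGSCs. MII oocytes had 5 and 5 against PGCs, 5 and 2 against FGSCs, and 3 and 1 against GV oocytes. The median log2 ratios, in the order of the report, were -0.85, -0.56, 0.01, -0.75, 0.26 and 0.14, beside -0.09, 0.01, -0.05, 0.54, 0.30 and 0.37 over all genes.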
